A study of Mus musculus with 192 samples.

Results

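Angptl4, Cavin1, Rhoc, Hspg2, Dysf, Mindy2 and Capn11 are 7 of the 54752 genes counted across 9 mouse tissues, and they were chosen from the flight contrasts of these samples because flight changed them in several tissues. The values that chose them, flight against ground in each genotype, are therefore given as a description with no p-value. All 7 passed the filter on low counts in all 9 tissues, as did 11230 genes in total, which made 63 pairs of gene and tissue in each contrast. Capn11 passed it in iBAT through the counts of a few mice, given below.

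The mice were males labelled C57BL/6 (C57BL/6J background in the methods of the study), 12 weeks of age by the labels, that were either wild type (WT) or germline knockouts of Nfe2l2, the gene of the transcription factor Nrf2 (Nrf2-KO). The methods give 12 weeks as the age of flight mice before launch, so flight mice were older at dissection. FL mice lived on the International Space Station and were dissected after their return, and GC mice were kept on the ground in the same cage units at another place and in a later season, so that flight and these differences cannot be told apart. The 4 groups were GC_WT, FL_WT, GC_KO and FL_KO, with 6 mice each in thymus (Thy), cerebrum (Cbr), liver (Liv), spleen (Spl), temporal bone (TpB), and white (eWAT) and brown (iBAT) fat, and 3 each in mandible (MdB) and kidney (Kid). The Nrf2-KO flight mouse FL04, which the study set aside as an outlier, was left out of all group values, so that FL_KO held 5 mice, or 2 in MdB. One mouse gave several tissues, and FL and GC mice with the same number are different animals.

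The members work at different points of tissue physiology. Angptl4 is a secreted inhibitor of lipoprotein lipase, the enzyme that frees fatty acids from circulating triglyceride, and its gene is a known target of PPAR receptors, glucocorticoids and hypoxia. Cavin1 coats and stabilises caveolae, the small pits of the plasma membrane that are dense in adipocytes, endothelium and muscle, and Dysf encodes dysferlin, a calcium-binding ferlin that helps to reseal torn plasma membranes. Rhoc is a small GTPase that controls the actin cytoskeleton. Hspg2 encodes perlecan, the large heparan sulphate proteoglycan of basement membranes. Mindy2 removes ubiquitin chains from proteins, and Capn11 is a calpain, a calcium-dependent cysteine protease known from testis.

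The libraries held 8.01 to 16.3 M counts assigned to genes, with a median of 14.5 M, and the shallowest were those of Thy at 8.01 to 10.6 M. Thy libraries were made from RNA depleted of ribosomal RNA and the others from poly(A) RNA, so Thy levels stand on another library type. No listed marker of the labelled tissues was at 0 in its own tissue. In iBAT, FL06, FL08 and FL11 held skeletal muscle RNA, with 3671 to 9362 TPM summed over 10 muscle markers against 0.77 to 76.96 in the other 21 libraries. TpB was mixed tissue that varied between mice, with 402 to 30007 TPM summed over the same muscle markers. Its 5 brain markers summed to 893 to 4639 TPM and its 6 macrophage markers to 307 to 12756. The part of this mixture in the TpB levels and flight values below was not tested. Levels are given as TPM, RSEM values scaled to gene length and library, and the log2 fold changes below come from edgeR on counts with TMM scaling. On the TPM scale the median gene shifted with flight by 0.30 (WT) and 0.43 (Nrf2-KO) in iBAT, 0.18 and 0.10 in TpB, 0.17 and 0.15 in Thy and, in Nrf2-KO, 0.15 in Liv, on the log2 scale.

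The genes lie on 6 chromosomes of GRCm38: Angptl4 at chr17:33773750-33781830 (minus strand), Capn11 at chr17:45630204-45659325 (minus), Cavin1 at chr11:100956733-100970887 (minus), Rhoc at chr3:104788375-104794459 (plus), Hspg2 at chr4:137468769-137570630 (plus), Dysf at chr6:84008590-84211060 (plus) and Mindy2 at chr9:70599014-70657174 (minus). All are protein coding. Antisense genes Gm33024 and Gm15475 overlap Dysf, the pseudogene Gm7498 lies within it, the miRNA Mir7018 lies within Hspg2 and Gm10642 overlaps Mindy2 on the opposite strand. The strand setting of the counting is not given in the sources used here, so reads of Dysf and Mindy2 could include their antisense partners.

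RefSeq promoter windows (GRCm38.p6, 250 bases before to 50 after a start) were at hand for 6 members, in 9 windows. The windows of Mindy2 overlap each other almost fully, as do those of Cavin1. The same matches were therefore counted more than once in these genes, and the window counts below are not counts of separate promoters. They were searched on both strands for 6 short motifs. The GC box GGGCGG was found in 9 of the 9 windows and in 35.7% of all 32851 promoter windows. The antioxidant response element core TGACNNNGC, the motif that Nrf2 binds, was found in 3 windows, of Dysf and Mindy2 (12.4% of all windows). The nuclear receptor hexamer AGGTCA was found in 2, of Dysf and Rhoc (16.3%). The glucocorticoid receptor hexamer AGAACA was found in 2, of Capn11 and Dysf (19.0%), and the hypoxia response core ACGTG in 5, of Cavin1, Dysf and Mindy2 (19.6%). The E-box CACGTG, which contains ACGTG, was found in 0 (7.15%). A match is a run of letters and not a measured binding site. The stretches before the transcribed bases are printed for Hspg2, which had 5 GC boxes, for both windows of Dysf, which differed in motifs, and for Capn11, whose fitted change in WT was larger than that of the other members. Capitals mark the motif matches, read 5′ to 3′ on the strand of the gene.
Hspg2, chr4:137468553-137468768, plus strand: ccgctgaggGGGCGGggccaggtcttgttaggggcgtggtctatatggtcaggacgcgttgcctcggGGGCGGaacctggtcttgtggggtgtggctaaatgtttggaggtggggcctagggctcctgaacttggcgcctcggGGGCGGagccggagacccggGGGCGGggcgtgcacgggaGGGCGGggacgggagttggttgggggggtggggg
Dysf, chr6:84008348-84008589, plus strand: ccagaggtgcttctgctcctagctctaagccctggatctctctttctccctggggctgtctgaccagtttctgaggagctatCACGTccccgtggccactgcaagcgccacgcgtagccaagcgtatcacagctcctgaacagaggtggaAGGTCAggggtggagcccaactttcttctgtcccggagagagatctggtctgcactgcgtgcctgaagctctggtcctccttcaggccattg
Dysf, chr6:84019136-84019384, plus strand: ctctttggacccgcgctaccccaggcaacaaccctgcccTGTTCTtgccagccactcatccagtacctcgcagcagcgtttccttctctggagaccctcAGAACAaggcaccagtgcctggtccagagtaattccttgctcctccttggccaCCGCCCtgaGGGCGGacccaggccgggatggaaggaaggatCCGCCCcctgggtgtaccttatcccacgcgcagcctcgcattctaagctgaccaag
Capn11, chr17:45659326-45659559, minus strand: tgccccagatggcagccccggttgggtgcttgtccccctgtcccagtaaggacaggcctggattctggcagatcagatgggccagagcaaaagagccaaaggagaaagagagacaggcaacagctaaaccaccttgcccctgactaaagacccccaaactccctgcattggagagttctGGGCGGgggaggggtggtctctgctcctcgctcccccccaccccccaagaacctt
In these stretches Hspg2 held 5 GC boxes and no other searched motif. The upstream Dysf window held the hypoxia core, read from the other strand as CACGT, and the hexamer AGGTCA, while the downstream window held 3 GC boxes and 2 AGAACA matches, one of them read from the other strand as TGTTCT. The Capn11 stretch held 1 GC box.

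The called pairs lay mostly in both fat tissues, Thy and Spl. In WT, 28 of the 63 pairs of member and tissue were called at an adjusted p of 0.05, with 7 members called in each of eWAT, iBAT and Thy, 6 in Spl, 1 in Liv and 0 in TpB, MdB, Kid and Cbr. Of all 140842 gene and tissue pairs, 6.55% were called in WT. By tissue that share was 13.4% in eWAT, 19.2% in iBAT, 22.8% in Thy, 2.26% in Spl, 3.45% in Liv, 0% in TpB, 0% in MdB, 0.119% in Kid and 0.0244% in Cbr. In Nrf2-KO, 20 of the 63 pairs were called, with 6 members in eWAT, 5 in each of iBAT and Thy, 2 in each of Spl and Liv and 0 in the other 4 tissues, beside 8.91% of all pairs. The shares by tissue were 7.71% in eWAT, 33.5% in iBAT, 38.2% in Thy, 0.668% in Spl, 3.34% in Liv, 0% in TpB, 0% in MdB, 0.159% in Kid and 0.0061% in Cbr. Since the flight contrasts chose the members, the high counts follow from the choice.

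Over all 9 tissues the signs of some members were mixed, with 5 up and 4 down for Rhoc and 6 up and 3 down for Cavin1 in each genotype. Among the called pairs each gene had a single direction. In WT 20 were called up and 8 down (3.23% and 3.32% of all pairs), and all 8 of the latter belonged to Capn11 and Mindy2. In Nrf2-KO 15 were called up and 5 down (4.43% and 4.48% of all pairs), and all 5 of the latter belonged to Mindy2. On log2(TPM + 1), with genes under 5 TPM left out, 45 pairs could be tested, and 15 were called higher and 0 lower in WT, while 14 were called higher and 3 lower in Nrf2-KO. Both genotypes shared 18 called pairs, 10 were called in WT alone, 2 in Nrf2-KO alone and 33 in neither. The TPM ranges of flight and ground mice did not overlap in 19 pairs in WT and 14 in Nrf2-KO, beside 8.34% and 10.5% of all pairs. Outside Capn11, the called log2 fold changes lay between -0.87 and 1.24.

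**Figure D1:**
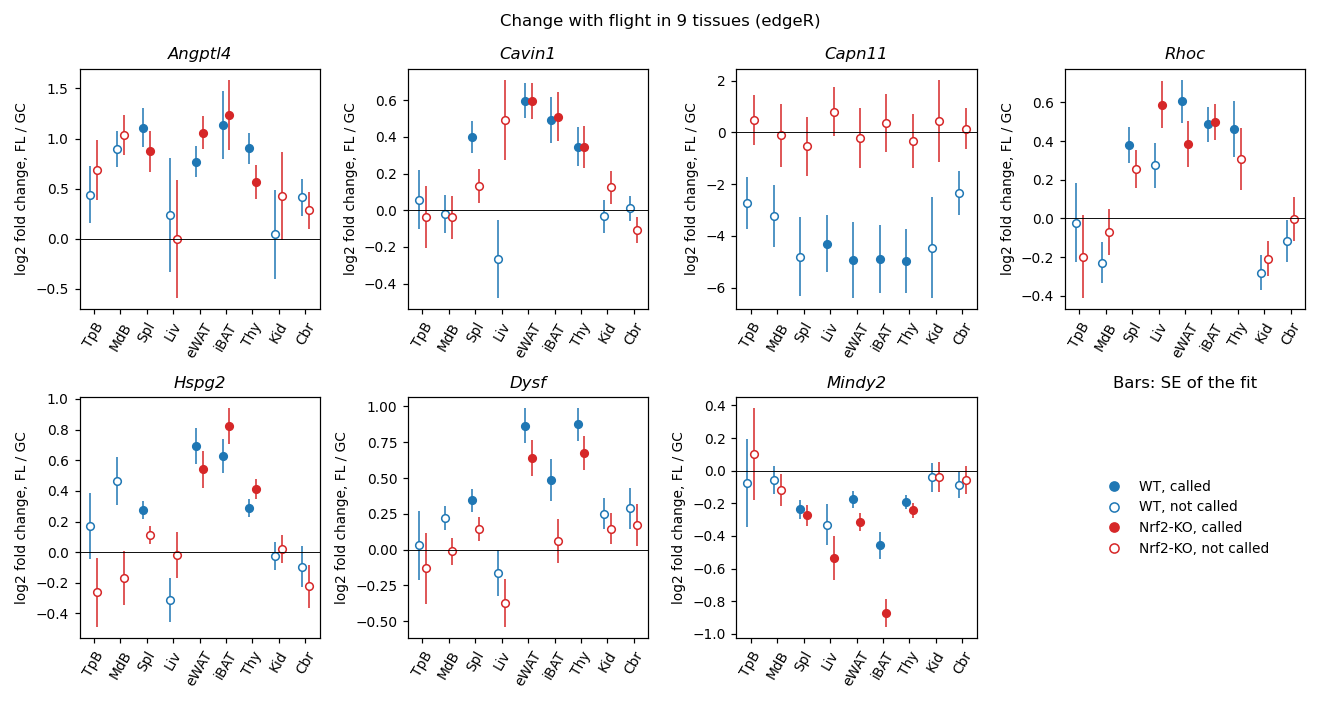
Log2 fold change with flight (flight against ground, edgeR, bars are standard errors) of the 7 genes in 9 tissues, with WT and Nrf2-KO drawn beside each other and filled symbols for calls at an adjusted p of 0.05. Angptl4, Cavin1, Rhoc, Hspg2 and Dysf lie above 0 in eWAT, iBAT, Thy and Spl in both genotypes, Mindy2 lies below 0 there, and Capn11 lies between -4.97 and -2.35 in WT and between -0.53 and 0.80 in Nrf2-KO.

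Angptl4 was higher after flight in fat, Spl and Thy of both genotypes. In eWAT, GC_WT mice held 262 to 409 TPM (median 312) and FL_WT mice 497 to 704.5 (median 560). In Nrf2-KO, the GC range was 186 to 381 TPM (median 241) and the FL range 472 to 657 (median 501). No flight mouse overlapped the ground mice in either genotype, and the log2 fold changes were 0.77 ± 0.16 (SE) in WT and 1.06 ± 0.16 in Nrf2-KO. In iBAT, where Angptl4 was lower than in eWAT, the values were 19.5 to 67.4 TPM (median 40.3) in GC_WT and 82.7 to 152 (median 123) in FL_WT. Nrf2-KO iBAT held 8.86 to 60 TPM (median 29.97) on the ground and 77.1 to 123 (median 96.4) after flight. The groups were again apart in both genotypes, with log2 fold changes of 1.14 ± 0.34 and 1.24 ± 0.35.

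In Spl, Angptl4 was at 5.67 to 11.1 TPM (median 9.16) in GC_WT and at 12.0 to 24.9 (median 21.1) in FL_WT, which did not overlap. In Nrf2-KO the ranges were 5.16 to 11.6 (median 6.62) and 11.6 to 16.6 (median 12.8), and they touched, with the lowest flight mouse at 11.56 and the highest ground mouse at 11.59. The log2 fold changes were 1.11 ± 0.19 and 0.87 ± 0.20, and the Nrf2-KO call was lost in 18 of 23 fits that each left out 1 mouse, with log2 fold changes of 0.78 to 1.04. In Thy the level was low, at 1.85 to 2.63 TPM (median 2.40) in GC_WT, 3.25 to 6.47 (median 5.18) in FL_WT, 1.19 to 2.90 (median 1.86) in GC_KO and 2.69 to 4.63 (median 3.04) in FL_KO. WT ranges were apart there and Nrf2-KO ranges overlapped, with log2 fold changes of 0.90 ± 0.15 and 0.57 ± 0.17.

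Angptl4 in MdB was not called but did not overlap between flight and ground. The GC_WT mice had 8.16, 8.75 and 14.43 TPM and the FL_WT mice 19.01, 19.85 and 22.9. The GC_KO mice had 8.27, 9.13 and 9.94 TPM and the FL_KO mice 16.58 and 21.48. The log2 fold changes, 0.90 ± 0.18 in WT and 1.04 ± 0.20 in Nrf2-KO, were as large as those in eWAT. MdB had 3 mice a group, or 2 in FL_KO, and 0 calls among all genes, and DESeq2 called Angptl4 there in both genotypes. In TpB the log2 fold changes were 0.44 ± 0.29 and 0.69 ± 0.30, and in Cbr 0.41 ± 0.18 and 0.29 ± 0.18, with no call. Liv and Kid showed no clear change, at 0.24 ± 0.56 and -0.00 ± 0.59 in Liv and 0.04 ± 0.44 and 0.43 ± 0.43 in Kid.

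The wide errors of Angptl4 in Liv and Kid went with the mouse number. In Liv, GC_WT mice numbered 1 to 6 held 51.8 to 85.7 TPM and those numbered 7 to 12 held 16.1 to 47.5. FL_WT mice held 81.3 to 105.3 and 22.5 to 48.7, GC_KO mice 67.3 to 109.7 and 16.6 to 38.3, and FL_KO mice 114 to 118 and 23 to 35.6. Within a genotype, flight and ground ranges overlapped in each set of numbers, except in Nrf2-KO mice numbered 1 to 6, where flight mice lay above ground mice. In all 4 groups every mouse numbered 1 to 6 was above every mouse numbered 7 to 12. Kid showed the same order, at 34.45 against 21.2 to 30.7 TPM in GC_WT, 39.6 against 25.3 to 28.4 in FL_WT, 65.9 against 21.6 to 22.01 in GC_KO and 53.9 to 72.2 against 26.0 in FL_KO. The labels do not say what the number stands for, and the split was chosen after the values were seen, so it was not tested. With the number set as a term in the fit, the flight log2 fold changes of Angptl4 in Liv were 0.22 in WT and 0.08 in Nrf2-KO.

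Genes around Angptl4 were read from lists of relatives and pathways, in which the flight contrast was tested. The share of all gene and tissue pairs called, to set beside these and the later lists, was 6.55% in WT and 8.91% in Nrf2-KO. Of 119 pairs of gene and tissue from the ANGPTL family and the control of lipoprotein lipase, 9 rose and 5 fell in WT (11.8%), and 6 rose and 4 fell in Nrf2-KO (8.40%), with median log2 fold changes of 0.07 and 0.01 beside 0.00 and 0.01 over all genes. Lpl, the lipase that Angptl4 inhibits, fell in eWAT from 4329 ± 581 to 3164 ± 310 TPM (SD, n = 6) in WT, a log2 fold change of -0.55 (edgeR adjusted p = 0.00266). Cd36, a fatty acid transporter, rose in iBAT by 0.48 in WT and 0.39 in Nrf2-KO, and Vldlr, a lipoprotein receptor, rose in Thy by 0.75 and 0.74. Angptl8, a regulator of lipase inhibition, fell in iBAT of Nrf2-KO from 100.02 ± 71.4 (n = 6) to 32.7 ± 14.6 TPM (n = 5), a log2 fold change of -2.07. Of 211 pairs of PPAR target genes, 36 rose and 4 fell in WT (19.0%, median 0.13), and 30 rose and 12 fell in Nrf2-KO (19.9%, median 0.15). In Liv 12 rose in WT and 13 in Nrf2-KO with 0 that fell, although Angptl4 itself was not called there, and Fgf21, a fasting hormone, rose by 4.56 and 3.13. Cpt1a, the entry enzyme of mitochondrial fatty acid oxidation, rose in Thy by 0.80 and 0.81. In iBAT, 8 rose and 3 fell in WT and 6 rose and 10 fell in Nrf2-KO. Hadhb, of the fatty acid oxidation cycle, was among those that fell, by 0.36 in WT and 0.66 in Nrf2-KO on the log2 scale. Of 133 pairs of glucocorticoid target genes, 5 rose and 2 fell in WT (5.26%, median -0.02) and 3 rose and 2 fell in Nrf2-KO (3.76%, median 0.05). These 7 and 5 calls were 6 to 21 and 2 to 17 under other settings, and 4 to 9 (4 without FL05) and 1 to 6 (1 without FL12, 2 without FL09, FL11 or GC09 and 3 without FL02, GC02, GC04, GC11 or GC12) with 1 mouse left out. Klf9, a transcription factor of that list, fell in eWAT by 0.63 and 0.52. Of 137 pairs of hypoxia genes, 4 rose and 6 fell in WT (7.30%, median 0.00) and 7 rose and 6 fell in Nrf2-KO (9.49%, median 0.02). Among these Adm, the gene of the vasodilator adrenomedullin, rose in eWAT of WT by 0.91, and Ldha, of lactate formation, rose in Liv by 0.69 and 0.48 and fell in iBAT by 0.74 and 1.09.

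Cavin1 was higher with flight in both fat tissues of both genotypes. In eWAT it ranged from 759 to 1068 TPM (median 946) in GC_WT and from 1293 to 1685 (median 1505) in FL_WT, and from 758 to 1026 (median 858) in GC_KO and 1050.3 to 1481 (median 1298) in FL_KO. Flight and ground mice did not overlap in either genotype, and both log2 fold changes were 0.60 ± 0.10. In iBAT the ranges were 70.7 to 109 TPM (median 83.1) in GC_WT and 107 to 216 (median 146) in FL_WT, which overlapped at their edge, and 70.8 to 104 (median 80.7) in GC_KO and 119 to 209.7 (median 164) in FL_KO, which did not. On log2 CPM, from counts with TMM scaling, the Nrf2-KO groups overlapped as well, with FL09 at 8.09 and GC12 at 8.25. The log2 fold changes were 0.49 ± 0.13 and 0.51 ± 0.13. In Thy, with 3.97 to 6.68 TPM in GC_WT and 6.34 to 9.38 in FL_WT, both genotypes had a log2 fold change of 0.35 ± 0.11. Spl was called in WT, at 27.1 to 37.8 TPM on the ground and 37.0 to 54.7 after flight (0.40 ± 0.09), and not in Nrf2-KO (0.13 ± 0.09). In Liv the sign differed between genotypes, at -0.27 ± 0.21 and 0.49 ± 0.22, with no call. In the other 4 tissues the log2 fold changes lay between -0.11 and 0.13. Of 87 pairs of caveola genes, 5 rose and 3 fell in WT (9.20%, median 0.02) and 9 rose and 0 fell in Nrf2-KO (10.3%, median 0.02). Cav1, the structural caveolin, rose in iBAT of WT by 0.37 and Cavin2, a partner of Cavin1, by 0.33, both with an adjusted p of 0.0139 or less. Pacsin3, a membrane-bending protein, rose in Thy by 0.62 in WT and 0.65 in Nrf2-KO and fell in eWAT of WT by 0.60.

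Rhoc followed Cavin1 in the fat tissues. In eWAT it ranged from 105 to 198 TPM (median 139) in GC_WT and 173 to 272 (median 242) in FL_WT, and from 148 to 186 (median 172) in GC_KO and 208 to 235 (median 222) in FL_KO. WT ranges overlapped and Nrf2-KO ranges did not, with log2 fold changes of 0.60 ± 0.11 and 0.39 ± 0.12, and the Nrf2-KO call was lost in 13 of the 23 fits without 1 mouse. In iBAT the ranges were 21.8 to 31.7 TPM and 36.5 to 55.2 in WT and 20.3 to 26.8 and 36.2 to 51.3 in Nrf2-KO. They were apart in both genotypes, with log2 fold changes of 0.49 ± 0.09 and 0.50 ± 0.09. Spl of WT was also apart, at 28.0 to 34.8 and 35.1 to 55.5 TPM (0.38 ± 0.09), while Spl of Nrf2-KO gave 0.26 ± 0.10 without a call. Thy gave 0.46 ± 0.14, called, in WT and 0.31 ± 0.16, not called, in Nrf2-KO. Liv of Nrf2-KO was called, at 6.78 to 9.66 TPM on the ground and 11.46 to 16.6 after flight, with no overlap and a log2 fold change of 0.59 ± 0.12, beside 0.27 ± 0.12 in WT. In TpB, MdB, Kid and Cbr the values lay between -0.28 and -0.00 and none was called. Rhoa and Rhob encode near-identical proteins, and reads they share with Rhoc, if any, were divided by the estimation of counts. Rhoa fell in Thy by 0.19 in WT and 0.25 in Nrf2-KO and was called in no other tissue, while Rhob fell in iBAT by 0.76 and 0.95 and rose in Thy of Nrf2-KO by 0.31. Of 197 pairs of small GTPases related to Rhoc and their effectors, 10 rose and 14 fell in WT (12.2%, median -0.00) and 12 rose and 12 fell in Nrf2-KO (12.2%, median 0.01). Arhgdia, which holds such GTPases in the cytosol, rose in eWAT by 0.28 and in iBAT by 0.30 in WT. Rhou, an atypical member of these GTPases, fell in eWAT of WT by 1.20, and Rhoh, the member found in blood cells, fell in Thy by 0.38 and 0.39.

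Hspg2 was higher in eWAT, iBAT and Thy in both genotypes. In eWAT its range was 87.9 to 153 TPM (median 131) in GC_WT and 182 to 269 (median 233) in FL_WT, which did not overlap, and 108 to 159.8 (median 149) in GC_KO and 153 to 238 (median 211) in FL_KO, which did. The log2 fold changes were 0.69 ± 0.12 and 0.54 ± 0.12. In iBAT it held 15.5 to 22.5 TPM (median 17.8) in GC_WT and 25.0 to 45.4 (median 36.0) in FL_WT, and 16.2 to 24.2 (median 17.9) in GC_KO and 37.9 to 59.3 (median 43.1) in FL_KO. Both genotypes were apart, with log2 fold changes of 0.63 ± 0.11 and 0.82 ± 0.12. In Thy it held 4.82 to 6.26 and 6.54 to 8.99 TPM in WT and 4.26 to 5.97 and 6.68 to 8.51 in Nrf2-KO, again apart, with log2 fold changes of 0.29 ± 0.06 and 0.41 ± 0.06. Spl was called in WT, at 17.53 to 24.2 against 23.5 to 28.6 TPM (0.28 ± 0.06), and gave 0.11 ± 0.06 in Nrf2-KO. In MdB the genotypes had opposite signs, at 0.46 ± 0.16 and -0.17 ± 0.18. TpB, Liv, Kid and Cbr gave values from -0.31 to 0.17 with no call. Of 162 pairs of basement membrane genes, 16 rose and 4 fell in WT (12.3%, median 0.08) and 24 rose and 2 fell in Nrf2-KO (16.05%, median -0.01). In Thy, where 22.8% and 38.2% of all genes were called, 7 of the 16 rises in WT and 15 of the 24 in Nrf2-KO were found. The laminin chain Lama3 rose there by 0.34 and 0.51 and fell in Liv by 1.03 and 1.17, Lamb1 rose in Thy of Nrf2-KO by 0.79, and Lamb3 rose in eWAT of WT by 1.10.

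Markers of other cell types moved in the same tissues. Of all genes, 22.8% (WT) and 38.2% (Nrf2-KO) were called in either direction in Thy, 13.4% and 7.71% in eWAT and 2.26% in Spl of WT. In Thy, 3 of 8 endothelial markers rose in WT and 6 of 8 in Nrf2-KO, with summed levels of 51.5 to 57.2 TPM in GC_WT, 57.9 to 69.0 in FL_WT, 39.6 to 59.6 in GC_KO and 54.0 to 70.5 in FL_KO. Fibroblast markers rose in Thy in 2 of 5 (WT) and 4 of 5 (Nrf2-KO), and macrophage markers in 3 of 6 and 5 of 6. Smooth muscle and pericyte markers rose there in 3 of 5 in each genotype. The 5 thymocyte markers summed in Thy to 2040 to 2446 TPM in GC_WT and 1709 to 2106 in FL_WT. For GC_KO and FL_KO the ranges were 1411.5 to 2268 and 1345 to 1542. Medians were lower in flight mice in both genotypes, but the ranges overlapped. The 5 B cell markers in Thy had higher sums in flight mice without overlap. Their medians were 7.89 TPM in GC_WT, 13.4 in FL_WT, 7.23 in GC_KO and 16.5 in FL_KO. In Spl of WT 4 of 6 smooth muscle and pericyte markers rose, from 205 to 327 TPM summed in GC_WT to 325 to 509 in FL_WT. In eWAT 3 of 8 endothelial markers rose in WT, from 565 to 741 to 762 to 980 TPM, and 1 of 8 in Nrf2-KO. Larger sums moved as well. In Spl the 6 erythroid markers summed to 6684 to 25644 TPM in GC_WT and 1279 to 5394 in FL_WT, and to 7999 to 38287 in GC_KO and 2466 to 4130 in FL_KO, lower in flight mice without overlap. This was not particular to Spl. In WT the erythroid sums were lower in flight mice without overlap in Liv, iBAT, MdB, Kid and Cbr as well. In Cbr, for one, they were 291 to 501 TPM in GC_WT and 127 to 213 in FL_WT. In Nrf2-KO the ranges overlapped in these other tissues. In eWAT the 5 hepatocyte markers summed to 5129.9 to 10546 TPM in GC_WT and 1289 to 3678 in FL_WT, and to 3862 to 7088 in GC_KO and 1822 to 3243 in FL_KO, again lower without overlap. These markers were not confined to Liv, since GC_WT mice held 1350 to 1693 TPM of them in Kid and 901 to 1381 in Cbr. The eWAT sums are therefore not a measure of hepatocytes. The 5 adipocyte markers in eWAT summed to 24683 to 38033 TPM in GC_WT and 14983 to 24039 in FL_WT, which did not overlap, and to 22008 to 28297 in GC_KO and 17421 to 25326 in FL_KO, which did. In iBAT the 6 smooth muscle and pericyte markers summed to 114 to 134 TPM in GC_WT and 159 to 213 in FL_WT, and to 102 to 135 in GC_KO and 169.5 to 222.5 in FL_KO, higher in flight mice without overlap. None of these markers was at 0 in all libraries of these tissues, and their part in the results of the members, Angptl4 and Mindy2 included, was not tested. In bulk tissue, a change in the share of cells of a type and a change in RNA per cell cannot be told apart.

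Dysf was higher after flight in eWAT and Thy of both genotypes and in iBAT and Spl of WT. In eWAT it held 13.4 to 15.1 TPM (median 13.98) in GC_WT and 21.5 to 36.2 (median 26.8) in FL_WT, and 12.2 to 14.6 (median 13.4) in GC_KO and 16.8 to 25.1 (median 22.9) in FL_KO. Flight mice lay above all ground mice in both genotypes, with log2 fold changes of 0.87 ± 0.12 and 0.64 ± 0.13. In Thy it held 0.91 to 1.40 TPM and 2.04 to 3.29 in WT and 1.0 to 1.44 and 2.17 to 2.51 in Nrf2-KO, again apart, with log2 fold changes of 0.87 ± 0.11 and 0.68 ± 0.12. Spl was called in WT (6.99 to 8.18 against 7.94 to 12.0 TPM, 0.34 ± 0.08) and gave 0.14 ± 0.08 in Nrf2-KO. In iBAT the WT ranges, 3.59 to 5.36 and 5.96 to 9.64 TPM, did not overlap, and the log2 fold change was 0.48 ± 0.15. On log2 CPM these WT groups overlapped, with FL03 at 4.82 and GC07 at 4.92. Nrf2-KO iBAT, at 3.88 to 6.31 and 4.66 to 11.2 TPM, overlapped and gave 0.06 ± 0.15. Skeletal muscle markers were called higher in iBAT in 8 of 10 in WT and 9 of 10 in Nrf2-KO, where 19.2% and 33.5% of all genes were called. Apart from FL06 and FL08, FL_WT mice held 1.55 to 30.59 TPM summed over them, against 0.77 to 43.8 in GC_WT. Apart from FL11, FL_KO mice held 1.52 to 76.96 TPM, against 0.82 to 76.23 in GC_KO. Without FL06, FL08 and FL11, the libraries with muscle RNA, the iBAT log2 fold changes of Dysf were 0.49 in WT, no longer called, and -0.00 in Nrf2-KO. The same fit left Cavin1 (0.48), Rhoc (0.43), Hspg2 (0.77) and Mindy2 (-0.42) called in WT, lost the WT calls of Angptl4 (1.01) and Capn11 (-4.38), and kept all 5 Nrf2-KO calls. Over all genes it called 2063 in WT and 4256 in Nrf2-KO. In the other 5 tissues the Dysf log2 fold changes lay between -0.37 and 0.29 with no call, although the WT ranges were apart in MdB and Kid. Of 108 pairs of ferlins and membrane repair genes, 10 rose and 3 fell in WT (12.0%, median 0.02) and 14 rose and 4 fell in Nrf2-KO (16.7%, median 0.01). In eWAT of WT the annexins, calcium-dependent membrane-binding proteins, rose in Anxa2 by 0.82, in Anxa5 by 0.62 and in Anxa6 by 0.59. Anxa2 fell in Thy by 0.71 and 0.72, and the ferlin Myof rose in Thy of Nrf2-KO by 0.59.

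Mindy2 was the member that fell in both genotypes, by small amounts. In iBAT it held 6.16 to 8.82 TPM (median 7.21) in GC_WT and 5.70 to 7.07 (median 6.61) in FL_WT, which overlapped, and 8.32 to 10.8 (median 9.11) in GC_KO and 5.97 to 8.26 (median 7.16) in FL_KO, which did not. On log2 CPM the WT groups were apart, with the lowest ground mouse, GC08, at 5.44 and the highest flight mouse, FL07, at 5.34. The log2 fold changes were -0.46 ± 0.08 and -0.87 ± 0.09. On log2(TPM + 1) they were -0.13 in WT, no longer called, and -0.38 in Nrf2-KO, still called. In Spl it held 19.7 to 22.96 TPM and 16.5 to 21.1 in WT and 18.9 to 24.3 and 14.7 to 19.0 in Nrf2-KO, with log2 fold changes of -0.24 ± 0.06 and -0.27 ± 0.06. Both Spl contrasts overlapped, and their calls were lost in 9 and 10 of the 23 fits without 1 mouse. In eWAT the ranges overlapped in both genotypes, at 7.80 to 9.75 and 7.72 to 9.78 TPM in WT and 8.33 to 11.9 and 7.90 to 8.99 in Nrf2-KO, with log2 fold changes of -0.18 ± 0.05 and -0.31 ± 0.05, and the WT value was -0.06 on log2(TPM + 1), no longer called. Liv was called in Nrf2-KO alone, at 2.32 to 4.41 against 1.80 to 2.70 TPM (-0.54 ± 0.13), with -0.33 ± 0.13 in WT. In Thy Mindy2 was called lower on counts, by -0.19 ± 0.04 and -0.24 ± 0.04, but on log2(TPM + 1) its change was 0.05 in WT and 0.02 in Nrf2-KO, in the opposite direction. The Thy TPM ranges were 16.6 to 20.6 and 17.1 to 20.6 in WT and 14.1 to 20.4 and 16.9 to 18.01 in Nrf2-KO, with overlap in both genotypes. TpB, MdB, Kid and Cbr gave values from -0.12 to 0.10 with no call. Of 90 pairs from the MINDY family and other deubiquitinases, 2 rose and 3 fell in WT (5.56%, median -0.02) and 2 rose and 6 fell in Nrf2-KO (8.89%, median 0.00). Both shares were near the 6.55% and 8.91% of all pairs. The 5 WT calls were 2 to 9 under other settings and 3 to 6 with 1 mouse left out (3 without FL03, FL05, FL06, FL11, GC05, GC06, GC07, GC08 or GC10), and the 8 Nrf2-KO calls were 8 to 12 and 8 to 11. Psmd14, the deubiquitinase of the proteasome lid, fell in iBAT by 0.65 in WT and 0.88 in Nrf2-KO, and Uchl5, another proteasome deubiquitinase, rose there in Nrf2-KO by 0.44. Over the 10 lists of 1333 pairs, 101 rose and 45 fell in WT (10.95%) and 111 rose and 50 fell in Nrf2-KO (12.1%).

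Capn11 was far lower in FL_WT than in GC_WT by the fit, and its values were those of single mice. The log2 fold changes in WT were between -4.97 and -2.35 in all 9 tissues and were called in Liv (-4.29 ± 1.10), eWAT (-4.93 ± 1.46), iBAT (-4.89 ± 1.31) and Thy (-4.97 ± 1.25). In Nrf2-KO they were between -0.53 and 0.80 with standard errors of 0.78 to 1.59 and no call. Flight and ground ranges overlapped in every tissue of both genotypes. The WT values rest on few counts, since 34 of 48 FL_WT libraries held 3 counts or fewer (22 held 0) and the highest FL_WT library held 25. In GC_WT 17 of 48 libraries were at 3 counts or fewer (9 at 0) and the highest held 166, in GC_KO 20 of 48 (12 at 0) with a highest count of 102, and in FL_KO 9 of 40 (3 at 0) with a highest count of 54. A count of 3, the most that a library at 0 allows, corresponded to 0.0882 to 0.205 TPM in the 79 libraries with at least 10 counts, for counting error only, so the size of these folds is not fixed by the data.

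The level of Capn11 went with the mouse across its tissues. Taken as the median TPM over its tissues, GC_WT mouse GC07 stood at 4.76, GC03 at 1.66, GC05 at 1.42, GC08 at 0.41, GC10 at 0.035 and GC06 at 0. Of the FL_WT mice, FL05 stood at 0.23, FL03 and FL06 at 0.045, and FL07, FL08 and FL10 at 0. The ground mice GC06 and GC10 were thus as low as the flight mice, and GC08 was above all of them. In GC_KO the values were 2.39 in GC04, 0.695 in GC12, 0.35 in GC01, 0.045 in GC11 and 0 in GC02 and GC09. In FL_KO they were 1.20 in FL02, 0.92 in FL01, 0.66 in FL09, 0.33 in FL11 and 0.05 in FL12. The middle mouse median was 0.915 TPM in GC_WT, 0.0225 in FL_WT, 0.198 in GC_KO and 0.66 in FL_KO. GC07 was the highest GC_WT mouse in 9 of its 9 tissues, FL05 the highest FL_WT mouse in 9 of 9, and GC04 the highest GC_KO mouse in 8 of 8. Summed over tissues, GC07 gave 1027 counts, GC03 333, FL05 85 and GC06 and FL08 3 each.

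This likeness between tissues of a mouse was tested apart from the flight contrast. Deviations of log2 CPM from the group mean were correlated between tissues of the same 23 mice, in 21 pairs of the 7 tissues with full groups and for each member, a family of 147 correlations. For Capn11 all 21 pairs passed, with Pearson r of 0.84 to 0.97 (median 0.92) and Spearman coefficients of 0.83 to 0.97. The permutation p-values, over mice within groups and two-sided, were 1e-05 to 2e-05 for r and 1e-05 to 6e-05 for the Spearman coefficient, where 1e-05 is the smallest that the permutations can give. Adjusted over the 147 correlations they were 7e-05 to 0.000128 for r and 7.7e-05 to 0.000401 for the Spearman coefficient. Without the 2 mice farthest from the median, r was 0.76 to 0.96. With the means of mice numbered 1 to 6 and 7 to 12 removed within groups, it was 0.85 to 0.97. Of the other 126 correlations, 5 passed for Angptl4, 1 for Mindy2 and 0 for Cavin1, Rhoc, Hspg2 and Dysf, of which 1, 1, 0 and 3 pairs had an unadjusted permutation p under 0.05 and 1 pair of Cavin1 passed by the Spearman coefficient. Angptl4 deviated together in eWAT and iBAT, with r = 0.82 and a Spearman coefficient of 0.84 (permutation p = 1e-05, adjusted 7e-05 and 7.7e-05), and with r = 0.69 without the 2 farthest mice. Its Spl level went with iBAT (r = 0.83, permutation p = 2e-05, adjusted 0.000128), Thy (r = 0.73, permutation p = 0.00048, adjusted 0.00294), eWAT (r = 0.67, permutation p = 0.00241, adjusted 0.0142) and Liv (r = 0.59, permutation p = 0.00566, adjusted 0.032). The Spearman coefficients of these 4 pairs were 0.82, 0.75, 0.59 and 0.60, with adjusted permutation p-values of 0.000447, 0.00257, 0.0455 and 0.0299, and without the 2 farthest mice r was 0.74, 0.64, 0.52 and 0.49. With number set means removed as well, r was 0.81 between Spl and eWAT, 0.79 between Spl and iBAT, 0.72 between Spl and Thy and 0.88 between eWAT and iBAT, which passed, and 0.40 between Spl and Liv, which did not (permutation adjusted p = 0.454). Mindy2 passed between Spl and Thy by r (0.52, permutation p = 0.00754, adjusted 0.0411) but not by the Spearman coefficient (0.47, permutation p = 0.0277, adjusted 0.12).

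The WT Capn11 calls rested in part on single mice. The Liv call was lost in 8 of 23 fits without 1 mouse (GC03, GC05, GC07, FL03, FL06, FL07, FL08 or FL10), with log2 fold changes of -5.12 to -3.26, and the eWAT call in 5 (GC07, FL03, FL06, FL08 or FL10), with -7.84 to -3.78. The Thy call was lost in 0 of 23 fits (-6.78 to -3.97) and the iBAT call in 0 of the 19 fits in which Capn11 passed the filter (-7.44 to -4.65). In iBAT, GC03, GC04, GC05, GC07 and FL01 held 13 to 54 counts of Capn11. The other fitted libraries held 0 to 9, and FL_WT mice at most 4. The filter there was thus passed mostly through the ground mice that make the contrast, so the kept iBAT call is no independent support. The genes beside Capn11 on chromosome 17 did not show folds of this size: the log2 fold changes with flight of Tmem63b and Slc29a1 lay between -0.26 and 0.57 over both genotypes and all tissues. Of 89 pairs of calpains and calpastatin, 4 rose and 1 fell in WT (5.62%, median 0.02) and 4 rose and 2 fell in Nrf2-KO (6.74%, median 0.01). Both shares were below the 6.55% and 8.91% of all pairs. The 5 WT calls were 3 to 10 under other settings and 3 to 7 with 1 mouse left out (3 without FL05, GC05, GC07 or GC10), and the 6 Nrf2-KO calls were 5 to 13 and 5 to 7. Capn2, one of the widespread calpains, rose in eWAT of WT by 0.30, and Capn3, the muscle calpain, fell in Thy by 0.59 in WT and 0.81 in Nrf2-KO.

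The genotype contrasts did not choose the members, but they rest on the same ground and flight libraries as the flight contrasts that did, so their calls are not independent of the choice and are given as a description. On the ground, 1 of 63 pairs differed between GC_KO and GC_WT, beside 1.65% of all pairs, and 7 had an unadjusted p under 0.05. That pair was Mindy2 in iBAT, which was higher in GC_KO, at 8.32 to 10.8 TPM against 6.16 to 8.82 in GC_WT. The log2 difference was 0.46 ± 0.08, 3 of 6 GC_KO mice were above all GC_WT mice on TPM, and 2.14% of genes were called in that contrast in iBAT. In flight, edgeR called 0 of 63 pairs between FL_KO and FL_WT, beside 1.35% of all pairs, with 12 pairs at an unadjusted p under 0.05, and DESeq2 called 1. Angptl4 in Thy, nearest to a call, had a log2 difference of -0.52 ± 0.16. Capn11 was lower in GC_KO than in GC_WT in all 9 tissues (-2.01 to -0.69) and higher in FL_KO than in FL_WT in all 9 (1.66 to 3.58), with no call in either. The difference between the flight responses, Nrf2-KO minus WT, is given as a description, because both responses may have chosen the members. For this difference edgeR called 0 of 63 pairs, with 11 at an unadjusted p under 0.05. In iBAT without FL06, FL08 and FL11 it called 0 of all 13555 genes tested. A share over all tissues is not given for this difference, nor for the unadjusted counts of this paragraph. These counts can therefore not be read as particular to the members. Among the members the difference lay between -0.63 and 5.24 on the log2 scale and was 2.49 to 5.24 for Capn11. Outside Capn11 it was widest for Cavin1 in Liv (0.76 ± 0.31) and Hspg2 in MdB (-0.63 ± 0.24), and for Mindy2 and Dysf in iBAT it was -0.42 ± 0.12 and -0.43 ± 0.21.

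FL04, which by the study had severe bleeding of the gut on the way back, was not used in any of these values and could be set beside them. In this mouse flight and the illness cannot be told apart. Of the 20 pairs called between FL_KO and GC_KO, FL04 lay on the flight side of the GC_KO mean in 20 and beyond the GC_KO range in 17 (85.0%) on log2 CPM. Over all 12525 called pairs in its tissues these shares were 94.4% and 70.5%. On TPM it lay on the flight side in 18, the exceptions being Rhoc in Liv at 8.36 TPM and Mindy2 in Thy at 20.4 TPM. Its Capn11 median over 8 tissues was 3.11 TPM (1.3 to 6.62), above all 5 other FL_KO mice.

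The members differed in where they were expressed at baseline. In GC_WT, mean TPM was highest in eWAT for Angptl4 (320 ± 59.8, SD), Cavin1 (927 ± 113), Hspg2 (129 ± 25.6) and Dysf (14.1 ± 0.745), with n = 6. Angptl4 followed in Liv (50.6 ± 29.4), iBAT (43.2 ± 16.5) and Kid (28.8 ± 6.82), which overlapped in order, and was lowest in Thy (2.33 ± 0.27) and Cbr (1.58 ± 0.336). Cavin1 followed at 86.5 ± 14.7 in iBAT and 82.8 ± 9.35 in TpB, which overlapped, then 46.8 ± 3.94 in MdB, 32.6 ± 3.54 in Spl, 18.4 ± 1.99 in Cbr and 12.6 ± 1.28 in Kid, and was lowest in Thy (4.82 ± 1.01) and Liv (2.82 ± 0.748). Hspg2 followed at 93.6 ± 11.7 in MdB, which overlapped with eWAT, 29.5 ± 4.43 in TpB, 20.6 ± 2.17 in Spl and 18.3 ± 2.59 in iBAT, then at 8.08 ± 0.781 in Kid, 5.31 ± 0.574 in Thy, 3.14 ± 0.457 in Liv and 2.20 ± 0.513 in Cbr. Dysf was spread over 11.2 ± 0.815 in MdB, 9.26 ± 1.26 in TpB, 7.41 ± 0.418 in Spl, 4.58 ± 0.71 in iBAT and 3.73 ± 0.28 in Kid, and stood at 1.20 in Thy and 1.02 in Cbr and Liv, with overlap between MdB and TpB, between iBAT and Kid and among the lowest 3. Rhoc was highest in Kid (146.5 ± 4.63, n = 3), eWAT (145 ± 34.5), MdB (124 ± 7.97) and TpB (116 ± 29.1), which overlapped in order, far above Spl (32.1 ± 2.88), Cbr (29.2 ± 5.0) and iBAT (26.1 ± 3.28), and lowest in Liv (8.73 ± 2.41) and Thy (6.08 ± 1.22). Mindy2 ran from 26.6 ± 10.2 in TpB, 23.1 ± 2.98 in Cbr, 21.9 ± 1.24 in Spl and 18.2 ± 1.39 in Thy, which overlapped in order, through MdB (12.1 ± 0.982), Kid (10.7 ± 0.633), eWAT (8.93 ± 0.732) and iBAT (7.27 ± 0.901) to 2.98 ± 0.564 in Liv. Capn11 means lay between 0.592 in iBAT and 3.26 in MdB, with SDs of 0.646 to 3.43, and all its neighbours in the order overlapped. Of the 56 pairs of neighbouring tissues in these orders, 33 overlapped in range.

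**Figure D2:**
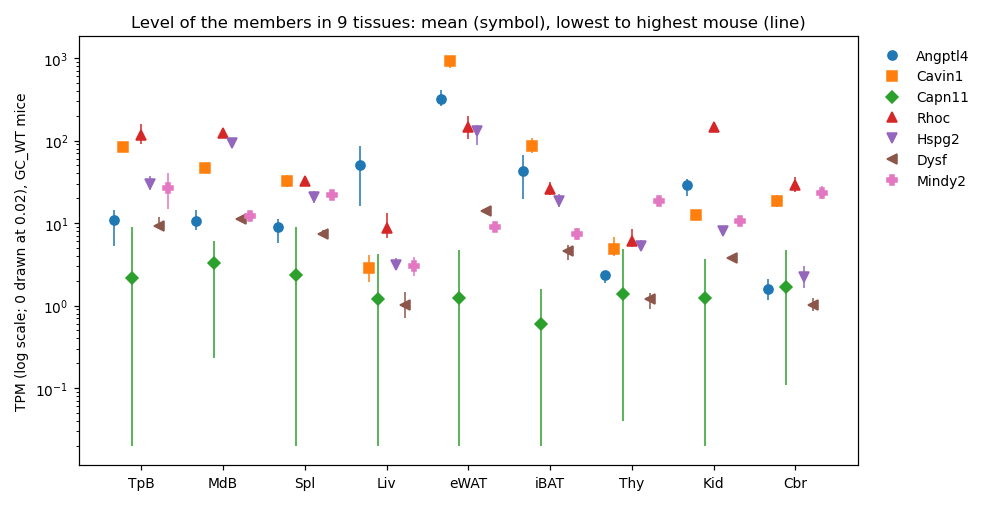
TPM of the 7 genes in GC_WT by tissue, on a log axis, with the mean and the lowest to highest mouse of each tissue and values of 0 drawn at 0.02. eWAT is the highest tissue for Angptl4 (320), Cavin1 (927), Hspg2 (129) and Dysf (14.1), and Capn11 spans from 0 to its highest mouse in most tissues.

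The flight log2 fold changes of 10501 genes over 9 tissues and both genotypes, 18 values, were compared with those of each member by Pearson r, as a description, since the values of a tissue share their libraries. The closest genes were Gnai1 (0.82), Camk2g (0.80) and Gna11 (0.77) for Angptl4, Gcnt2 (0.88), Synpo (0.87) and Prss23 (0.86) for Cavin1, and Armcx1 (0.89), Lims2 (0.85) and Efnb1 (0.85) for Rhoc. For Hspg2 they were Tinagl1 (0.91), Pxdc1 (0.90) and Trim47 (0.89), for Dysf Lmo7 (0.89), Uaca (0.88) and Etl4 (0.86), and for Mindy2 Stard4 (0.92) and Hes6 (0.90). For Capn11 they were Srp54c (0.90), Cdk5rap1 (0.85) and Pisd-ps1 (0.79). Among the members, Cavin1 was most like Hspg2 (0.80) and Rhoc (0.79), Angptl4 was most like Hspg2 (0.64), Rhoc and Mindy2 ran opposite (-0.74), and Capn11 was unlike the others (-0.47 to -0.04).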

How the data were processed

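RNA was sequenced in 192 samples of 9 tissues on a HiSeq2500 from strand-specific SureSelect libraries. Per the labels and the methods of the study, the authors mapped reads to mm10 with STAR 2.6.1 and estimated genes with RSEM 1.3.1. The deposited tables hold, for each gene and sample, expected counts, which the authors did not normalize, and TPM, which RSEM scales to gene length and library; 192 FPKM columns were not used. The members, lists and tests were chosen with earlier results of these data known. The study left out FL04 and tested with DESeq2.

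Expected counts were rounded and fitted per tissue, with the 4 groups in 1 model, by the quasi-likelihood test of edgeR 4.0.16 (R 4.3.3) after its filter on low counts and TMM scaling, and p-values were adjusted by Benjamini-Hochberg over all genes tested in the tissue at 0.05. The fits were checked on counts drawn with known fold changes. Library totals, 8.01 to 16.3 M, bound the precision of low genes, and intervals from counts cover counting error only. Same-numbered mice are different animals, so p-values measure the spread between mice. Correlations between tissues used log2 CPM with a prior count of 2 and 100000 permutations of mice within groups (Python 3.11.15, numpy 2.4.6).

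All 7 members were named in all tissues. From each list and flight contrast, up to 3 pairs called higher and 3 called lower with the smallest adjusted p could be named, together with paralogs of a member and the 3 genes most like it, leaving out Gm and Rik symbols and 1 gene that is not reported here; genes beside Capn11 were named after their values were seen. Other settings were RLE factors, DESeq2 1.42.0, log2 of TPM plus 1 by limma 3.58.1 for genes of at least 5 TPM in mean, no filter, FL04 included, only the 2 groups compared, library set or mouse number as a block, and each mouse left out. Those added after the data had been seen were a term for mice numbered 1 to 6 against 7 to 12, and iBAT without FL06, FL08 and FL11. Positions are those of GENCODE release 21 and promoter sequences those of RefSeq (GRCm38.p6).

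Whether same-numbered mice deviated together was checked per tissue and genotype. In Liv of Nrf2-KO all 5 pairs had a correlation over 0.1 (0.22 to 0.37), but in no other tissue with 3 or more pairs, and in Liv of WT 4 of 6 (0.02 to 0.34). With the block, Liv gave 758 in place of 463 calls in WT and 549 in place of 448 in Nrf2-KO, and among the members Capn11 (-3.95, WT), Rhoc (0.58, Nrf2-KO) and Mindy2 (-0.58, Nrf2-KO) stayed called.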

Additional observations from a re-analysis of the deposited data

Results flagged for a closer look

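Of 196 groups of 4 to 10 mice, 23 held 1 mouse beyond Dixon's 95% limit, where chance gives about 9.8 at 1 in 20. Capn11 made up 14 of them. In GC_WT the mouse was GC07 in TpB (8.91 TPM), Spl (8.97), eWAT (4.76) and Thy (4.82). In FL_WT it was FL05 in TpB (1.19), Spl (0.44), Liv (0.21), eWAT (0.21), iBAT (0.13) and Thy (0.23). In GC_KO it was GC04 in TpB (2.61), eWAT (2.24), iBAT (0.7) and Thy (1.77). In each of these groups the same mouse was the highest in every tissue listed for it, and some of these values, such as the 0.13 TPM of FL05 in iBAT, rest on few counts.

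The other 9 were spread over 6 genes. Angptl4 was high in FL01 in Spl (16.58 TPM), in FL03 in Cbr (2.82) and in GC02 in Cbr (2.52). Cavin1 was high in FL06 in Thy (9.38), Rhoc in GC08 in Liv (13.35), Hspg2 in FL02 in TpB (37.91) and in GC04 in Cbr (3.86), Dysf in GC08 in TpB (11.77) and Mindy2 in GC02 in Liv (4.41).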

How the results depend on the processing

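Of the 63 pairs, 28 were called with flight in WT, and 23 to 28 under the other settings that used counts. On log2(TPM + 1), where 45 pairs could be tested, 15 were called, which included 0 lower. In that setting Mindy2 in Thy turned to 0.052 in WT and 0.019 in Nrf2-KO, and no other called pair of a member changed sign in any setting. The iBAT changes on that scale were 0.78 and 0.92 for Cavin1, 0.79 and 0.89 for Rhoc and 1.90 for Angptl4 in Nrf2-KO, over 1.5 times those on counts, as was Hspg2 in Thy of WT (0.45). In Nrf2-KO, 17 to 21 pairs were called, against 20. With 1 mouse left out, the calls were 20 to 28 in WT and 16 to 20 in Nrf2-KO. Pairs that lost a call in 1 to 4 of these fits were Cavin1 in Spl (WT, without FL06, FL08, GC03 or GC05) and Thy (WT, without FL06 or GC06, and Nrf2-KO, without FL12 or GC01), Dysf in iBAT (WT, without GC06), Hspg2 in Spl (WT, without FL08), Rhoc in Thy (WT, without FL03, FL06 or GC06) and Mindy2 in Liv (Nrf2-KO, without FL02, FL09 or FL11). In WT, Rhoc in Spl lost its call in 8 fits, Mindy2 in eWAT in 7 and Dysf in Spl in 6. The replicate block left 24 calls in WT and 18 in Nrf2-KO, and the mouse number pairs the mice in no tissue but, in Nrf2-KO, Liv. Genotype on the ground gave 1 call, and 1 to 2 with 1 mouse left out, the added one being Rhoc in Kid (-0.37, without GC11) or Angptl4 in eWAT (-0.57, without GC02). Genotype in flight gave 0 calls by edgeR, 1 by DESeq2 (Angptl4 in Thy, -0.52), 1 with the number set as a term (Cavin1 in Liv, 0.63) and 0 to 1 with 1 mouse left out (Angptl4 in Thy without FL07, FL11 or GC02, and Dysf in eWAT, -0.49, without FL03). The causes were not tested. The list pairs called were 122 to 206 in WT, against 146, and 130 to 207 in Nrf2-KO, against 161. Of the correlations 24 to 30 passed, against 27. Low counts limit Capn11, and 3 mice a group, or 2 in FL_KO of MdB, limit MdB and Kid.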
